A study of Mus musculus with 116 samples.

Results

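RAG-initiated joining of Vk gene segments to Jk1 was compared between Ku70-/- and WT pro-B cells in 12 of the 116 samples of the series, chosen by their titles, genotypes and clones. All cells were mouse pro-B cells transformed with the v-Abl oncogene. All 4 groups carried an Emu-Bcl2 transgene, and all were arrested in G1 by 96 h of exposure to 3 µM STI-571, an inhibitor of the Abl kinase. The groups, with 3 libraries each, were WT clone A, Ku70-/- clone A1, WT clone B and Ku70-/- clone B1, so that each genotype is represented by 1 clone per lineage. Ku70 itself was not measured here, so the genotype rests on the labels, which give neither the origin of the Ku70-/- clones nor whether replicates were separate cultures. The p-values below therefore measure the spread between these libraries, which may be technical.

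RAG cuts DNA between a coding segment and its recombination signal. The coding ends are left as closed hairpins and the signal ends as blunt cuts. In classical non-homologous end joining the Ku70/Ku80 ring binds both kinds of end, the hairpins are opened by Artemis with DNA-PKcs, and ligase IV with XRCC4 seals the join. A coding join links coding end to coding end, and at Igk it deletes or inverts the DNA in between according to the direction of the Vk segment. A hybrid join links a coding end to the signal end of the other segment. Hairpins opened off centre leave short palindromic copies of the coding end, called P nucleotides, and terminal transferase can add untemplated bases.

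Each junction was read by LAM-HTGTS, linear amplification from a primer beside the Jk1 coding end (the bait) into the sequence it had joined (the prey). The deposited lists held 47130 to 53074 junctions in WT A, 3075 to 6383 in Ku70-/- A1, 291174 to 305846 in WT B and 50218 to 60811 in Ku70-/- B1. Lineage A libraries were taken from 167151 raw reads each and lineage B libraries from 600000. Reads carried no molecular identifiers. Distinct junction structures made up 9.27% to 27.4% of the listed junctions in the WT libraries and 36.1% to 56.5% in the Ku70-/- libraries. The primer lay closer to Jk1 in lineage B: reads began 81 bp from the coding end, against 140 or 141 bp in lineage A. The largest Jk1 loss seen was 48 bp in lineage B and 107 bp in lineage A. In lineage A, replicates 2 and 3 of both genotypes shared a sequencing run each and replicate 1 did not, while all lineage B libraries came from 1 run. Ku70-/- B1 held 1, 0 and 3 junctions to 5 neighbouring Vk segments, Igkv3-2 to Igkv3-7, which held 6.96% to 7.01% of WT B junctions. Without these segments each of the 18 measures kept its direction and its side of the threshold.

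The Jk1 segment (Igkj1) is an exon of 38 bp on chromosome 6 (mm10, chr6:70722562-70722599). Bait reads ran against the genome's plus strand, from the intron through Jk1 to its coding end. The most frequent junction of each group is shown first as an example: the WT reads keep Jk1 to its last base, whereas the Ku70-/- reads stop short of it. Each is a single structure, and the losses over all junctions are given further below. Each is written 5′ to 3′ with retained Jk1 bases in capitals and the intron before Jk1 and the prey after it in lower case.

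Jk1 germline: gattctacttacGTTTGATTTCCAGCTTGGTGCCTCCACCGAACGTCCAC
WT A, to Igkv1-135: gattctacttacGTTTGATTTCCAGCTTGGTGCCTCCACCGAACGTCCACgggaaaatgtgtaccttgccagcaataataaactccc
WT B, to Igkv16-104: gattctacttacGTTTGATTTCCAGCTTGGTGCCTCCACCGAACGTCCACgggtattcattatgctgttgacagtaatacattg
Ku70-/- A1, to Igkv3-10: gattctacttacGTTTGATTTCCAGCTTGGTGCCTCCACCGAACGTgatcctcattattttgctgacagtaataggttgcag
Ku70-/- B1, to Igkv12-46: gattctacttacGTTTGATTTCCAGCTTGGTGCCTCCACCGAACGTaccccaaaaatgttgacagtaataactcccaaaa

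The WT A junction was seen 777 times and holds 1 inserted base, and the WT B junction was seen 5623 times and shares 2 bases between bait and prey. Both keep all of Jk1. The most frequent Ku70-/- junctions were rarer, with 42 junctions in A1 and 223 in B1, and each had lost 4 bp of Jk1. On the Vk side they had lost 4 and 6 bp, counted from the annotated RefSeq border of the segment.

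Loss from the Jk1 coding end was near universal in Ku70-/- cells. In WT A, 47.1%, 47.2% and 48.8% of junctions in replicates 1 to 3 had lost at least 1 bp of Jk1, and in WT B 52.3%, 52.4% and 52.4%. The shares were 99.7%, 99.5% and 99.6% in Ku70-/- A1 and in Ku70-/- B1 99.1%, 99.1% and 99.1%. Every Ku70-/- library lay above every WT library of its lineage, as it did with only libraries that shared a run (difference 49.1 percentage points, exact permutation p = 0.0167). The mean difference over both lineages was 49.3 percentage points. By a two-sided exact permutation test within lineages p was 0.005, the smallest it can give (Benjamini-Hochberg adjusted p = 0.00563 over 18 measures). Over distinct junctions the WT shares were higher, at 62.3% ± 2.15 (A) and 69.6% ± 0.0912 (B). The difference was then 33.1 percentage points (exact permutation p = 0.005).

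The Jk1 loss was also deeper. Mean loss per junction was 1.30 ± 0.0610 bp (SD, n = 3) in WT A and 26.1 ± 0.969 bp in Ku70-/- A1, and 1.31 ± 0.00824 bp in WT B and 17.6 ± 0.0524 bp in Ku70-/- B1. The mean difference of 20.5 bp had an exact permutation p of 0.005 (adjusted 0.00563). At least 10 bp of Jk1 was gone from 0.834% ± 0.241 of WT A and 0.532% ± 0.0211 of WT B junctions, and from 74.99% ± 0.696 of Ku70-/- A1 and 70.5% ± 0.351 of Ku70-/- B1 junctions (difference 72.1 percentage points, exact permutation p = 0.005, adjusted 0.00563). All 38 bp of the segment were missing from 26.7% ± 1.54 of Ku70-/- A1 junctions and 11.4% ± 0.338 of Ku70-/- B1 junctions, against 0.0256% ± 0.0219 in WT A and 0.00754% ± 0.00227 in WT B. The lineage B shares count losses of 38 to 48 bp only, so they are not comparable with those of lineage A.

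The Ku70-/- clones differed in mean Jk1 loss, and clone, primer position, sequencer and run cannot be told apart between them. In Ku70-/- A1, 18.4% ± 0.512 of junctions had lost more than 48 bp, a length that lineage B reads cannot show. Among junctions with losses of at most 48 bp the mean was 17.0 ± 0.678 bp in A1 and 17.6 ± 0.0524 bp in B1. The genotype effect was then 15.7 bp in lineage A and 16.3 bp in lineage B, against 24.8 and 16.3 bp without that limit.

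The losses did not fall evenly along Jk1. In all 6 Ku70-/- libraries the most frequent bait end lay 16 bp inside Jk1, at position 70722578, with 8.98% ± 1.00 of junctions in A1 and 9.55% ± 0.143 in B1, whereas 0.105% of WT A and 0.0551% of WT B junctions ended there. Losses of 4, 5, 9, 10, 14 and 15 bp were the next most frequent in B1 and held 4.70% to 6.997% of its junctions each. WT junctions instead peaked at no loss, with 52.3% ± 0.969 in WT A and 47.6% ± 0.0395 in WT B. Over the 49 positions from 0 to 48 bp the mean profiles of A1 and B1 had a Pearson correlation of 0.98. That is a description: both clones share the Jk1 sequence, and bases shared by bait and prey are counted as kept by Jk1.

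**Figure D1:**
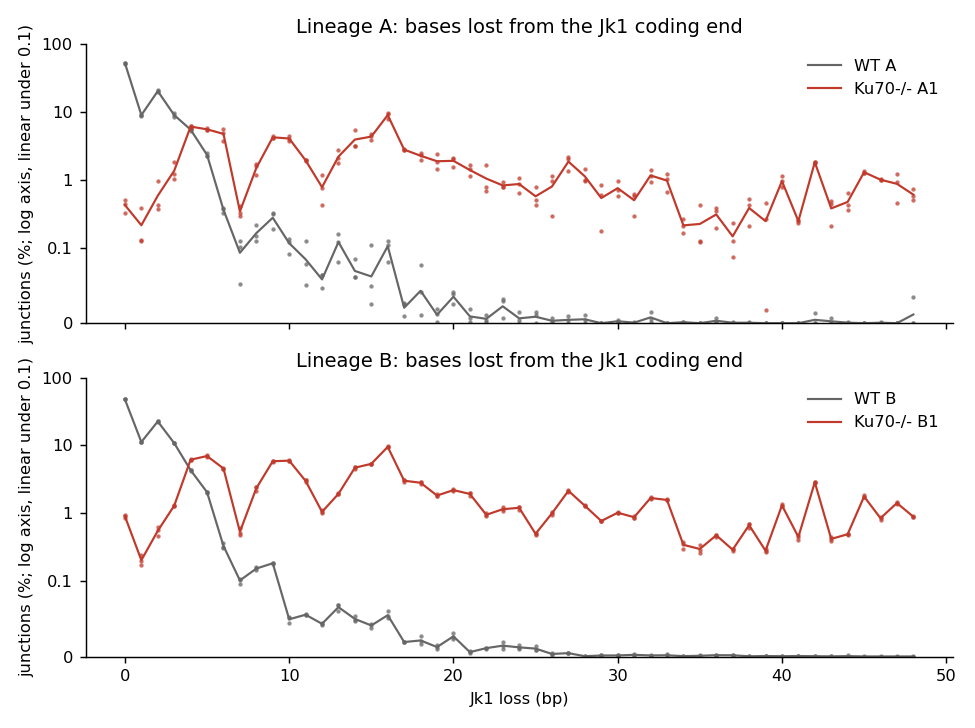
Share of junctions (%; log axis above 0.1, linear below) at each Jk1 loss from 0 to 48 bp, in lineage A (upper) and lineage B (lower). Points are libraries and lines are means of 3; WT peaks at 0 bp and falls steeply, while both Ku70-/- clones peak at 16 bp and extend to 48 bp.

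The Vk side of the joins was shortened in the same way. For each of 122 Vk segments the coding end was set at its most frequent prey position over the 6 WT libraries, because no genome sequence was at hand to read the recombination signals. This position lay a median of 3 bp inside the RefSeq border, so a Vk loss below is loss beyond the usual WT join. In WT A 31.2%, 32.5% and 32.8% of coding joins had lost at least 1 bp beyond it, and in WT B 28.3%, 28.3% and 28.3%. The shares were 94.6%, 95.5% and 95.4% in Ku70-/- A1 and in B1 93.9%, 94.3% and 94.2%, with no overlap between genotypes in either lineage. The mean difference was 64.4 percentage points (exact permutation p = 0.005, adjusted 0.00563). Over distinct junctions the WT shares were 43.3% ± 1.78 (A) and 54.3% ± 0.142 (B). The difference was then 46.1 percentage points (exact permutation p = 0.005).

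Mean Vk loss rose from 0.957 ± 0.0289 bp in WT A to 22.0 ± 0.900 bp in Ku70-/- A1, and from 0.891 ± 0.00284 bp in WT B to 16.2 ± 0.282 bp in Ku70-/- B1 (difference 18.2 bp, exact permutation p = 0.005, adjusted 0.00563). At least 10 bp was lost in 1.45% ± 0.147 and 1.66% ± 0.0290 of WT A and WT B coding joins and in 60.2% ± 1.27 and 52.5% ± 0.659 of Ku70-/- A1 and B1 coding joins. Counted from the RefSeq border instead, the median loss was 3 bp in each WT A library, 2 bp in each WT B library, 16 to 18 bp in Ku70-/- A1 and 13 bp in each Ku70-/- B1 library. By that border 81.2% ± 0.403 of WT A and 77.7% ± 0.153 of WT B coding joins had lost a base, against 98.9% ± 0.224 in Ku70-/- A1 and 98.7% ± 0.109 in Ku70-/- B1. The difference in that share was then 19.3 percentage points in place of 64.4 (exact permutation p = 0.005), and the difference in mean loss was 19.1 bp. Lineage B reads cannot show joins with Jk1 losses over 48 bp. Within that limit, mean Vk loss beyond the usual WT join was 17.6 ± 0.494 bp in A1 and 16.2 ± 0.282 bp in B1.

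Very few junctions in the deposited lists lay more than 200 bp from any Vk coding end. With a window of 1000 bp the mean share outside it was 0.00839% ± 0.00554 in Ku70-/- B1 and lower in the other groups. Whether the lists were limited to joins near Vk segments before deposit was not tested. If they were, this share says nothing about joins elsewhere. The values that follow are for 200 bp. The shares were 0.0488% to 0.0653% in WT A, 0% to 0.0470% in Ku70-/- A1, 0.0203% to 0.0256% in WT B and 0.0199% to 0.0367% in Ku70-/- B1, and the difference did not pass the test (-0.0164 percentage points, exact permutation p = 0.25). Where 0 junctions were seen, in replicates 1 and 2 of A1, the library sizes allow shares of up to 0.0976% and 0.0528%. With a window of 50 bp instead, the shares outside it were 0.187% ± 0.0241 in WT A, 10.1% ± 1.06 in Ku70-/- A1, 0.0431% ± 0.00137 in WT B and 4.29% ± 0.0838 in Ku70-/- B1.

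Both ends were usually shortened in the same join. Loss at both ends was found in 11.4% ± 0.972 of WT A and 10.7% ± 0.0582 of WT B coding joins, and in 94.8% ± 0.567 of Ku70-/- A1 and 93.5% ± 0.177 of Ku70-/- B1 coding joins. Joins with both ends intact made up 31.5% ± 0.716 of WT A and 30.03% ± 0.0257 of WT B, but 0.0856% ± 0.0432 of Ku70-/- A1 and 0.151% ± 0.0259 of Ku70-/- B1. Both differences had an exact permutation p of 0.005 (adjusted 0.00563). The size of the fall in joins with both ends intact rested on the Vk end and on repeated junctions: the difference was -30.7 percentage points as counted here, -5.46 with RefSeq borders, -47.7 with the most frequent Ku70-/- prey positions as ends and -13.8 over distinct junctions (exact permutation p = 0.005 each). The median total loss from both ends, with RefSeq Vk borders, was 34 to 36 bp in A1 and 28 or 29 bp in B1, against 4 bp in each WT A and 3 bp in each WT B library. Joins with Jk1 losses over 48 bp, which lineage B reads cannot show, enter the lineage A medians only.

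Joins with a long loss at Jk1 more often had a long loss at Vk, in both genotypes. Among A1 joins that had lost at least 10 bp of Jk1, 75.1% ± 1.07 had lost at least 10 bp of Vk, against 23.6% ± 1.73 of the other A1 joins. In B1 these shares were 67.3% ± 0.511 and 22.1% ± 0.338. In WT they were 12.8% ± 2.21 and 1.35% ± 0.183 (A) and 13.5% ± 1.48 and 1.59% ± 0.0386 (B). Spearman's rho between both losses was 0.634 to 0.673 over the coding joins of each A1 library and 0.545 to 0.554 in B1, whereas in WT libraries it was -0.191 to -0.150. These are descriptions over junctions, which share library, Jk1 end and segments and are not independent.

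The balance between both ends depended on how loss was counted. Jk1 loss minus Vk loss averaged 0.294 to 0.363 bp in WT A, 1.12 to 3.05 bp in Ku70-/- A1, 0.408 to 0.427 bp in WT B and 0.340 to 0.874 bp in Ku70-/- B1, so that B1 overlapped with WT B. The mean difference of 0.947 bp passed the test (exact permutation p = 0.02, adjusted 0.0212). By the same exact test it did not pass without any single WT A library (p = 0.07 without replicate 1, 2 or 3, with differences of 0.936, 0.952 and 0.953 bp), with RefSeq Vk borders (0.0427 bp, p = 0.91) or with distinct junctions (0.666 bp, p = 0.355), and it changed sign when Jk1 losses over 48 bp were left out (-0.907 bp, p = 0.085). It was larger with a Vk window of 50 bp (3.47 bp), with Ku70-/- prey positions as Vk ends (5.29 bp) and with overlaps counted as lost from Jk1 (1.61 bp; exact permutation p = 0.005 each).

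**Figure D2:**
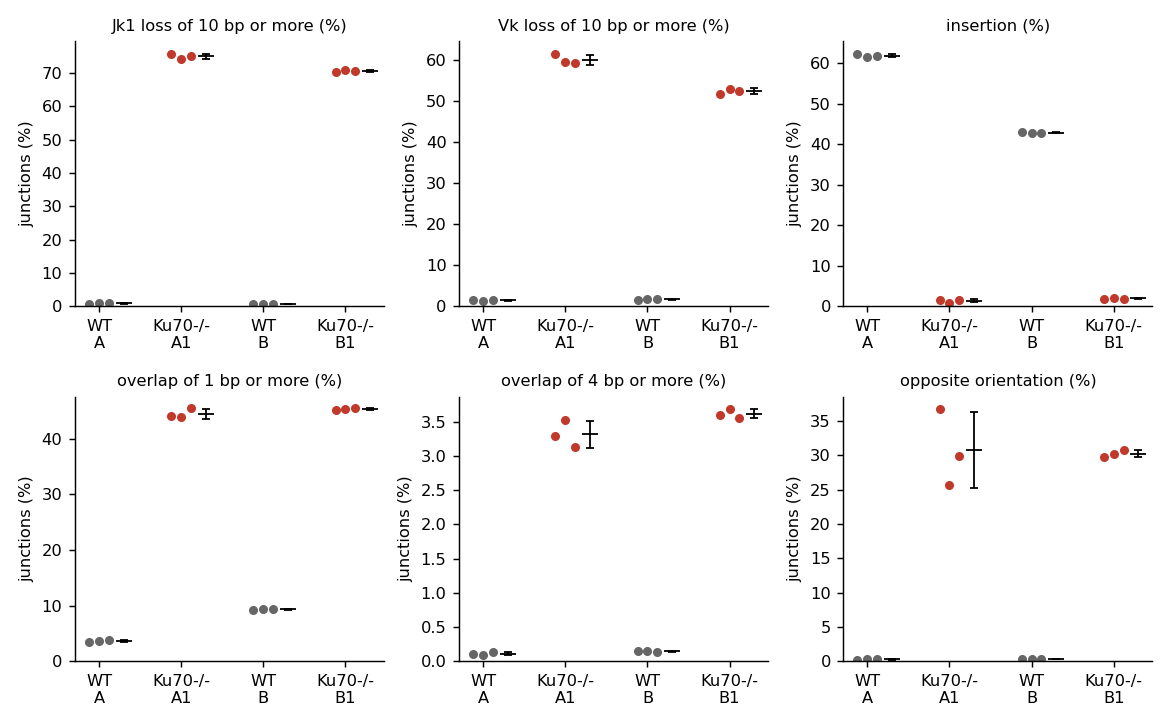
Percent of junctions in each library (points) with the mean and SD of 3 libraries beside them, for 6 measures in the 4 groups; Vk loss is over coding joins and the vertical axes start at 0. Ku70-/- and WT libraries do not overlap within a lineage in any panel; insertion is the measure that is lower in Ku70-/-.

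Inserted bases nearly disappeared from the joins. An insertion is a stretch of read between the bait and prey alignments that belongs to neither. Insertions were present in 62.4%, 61.5% and 61.9% of WT A junctions and 43.1%, 42.8% and 42.8% of WT B junctions. Only a few Ku70-/- A1 junctions had one, at 1.59%, 0.863% and 1.60%, and likewise in Ku70-/- B1, at 1.88%, 2.08% and 1.80%. The mean difference was -50.8 percentage points (exact permutation p = 0.005, adjusted 0.00563). The insertion share differed between the WT clones by more than their replicate spread, while the Ku70-/- clones lay close to each other. Over distinct junctions the WT clones were alike, at 75.2% ± 2.01 (A) and 74.7% ± 0.0977 (B). The Ku70-/- shares were then 2.61% ± 0.623 in A1 and 3.35% ± 0.284 in B1.

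The few insertions that remained were longer. Their mean length was 2.41 ± 0.0780 bp in WT A, 3.17 ± 0.566 bp in Ku70-/- A1, 2.47 ± 0.00674 bp in WT B and 5.05 ± 0.196 bp in Ku70-/- B1 (difference 1.67 bp, exact permutation p = 0.005, adjusted 0.00563). Insertions of at least 5 bp made up 8.17% ± 0.0431 of WT B insertions and 35.7% ± 1.39 of Ku70-/- B1 insertions, but 9.05% ± 0.451 in WT A and 16.1% ± 3.69 in Ku70-/- A1. The Ku70-/- means rest on 49, 49 and 102 insertions in A1 and 946, 1245 and 1095 in B1. When each distinct junction was counted once the WT means were longer, 3.22 ± 0.234 bp in A and 4.43 ± 0.0192 bp in B, and the difference of 0.340 bp did not pass the test (exact permutation p = 0.1).

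Ku70-/- B1 joins that kept Jk1 intact were a small and distinct class. Only 456, 567 and 526 junctions of the 3 B1 libraries had lost no base of Jk1, and an insertion followed in 49.0% ± 0.629 of them, against 48.6% ± 0.106 in WT B. Of the B1 junctions that had lost Jk1 bases, 1.49% ± 0.124 had an insertion, whereas in WT B the share was 37.7% ± 0.211. In A1 only 10, 29 and 28 junctions kept Jk1 intact. Reads whose bait alignment ran past the coding end count here as intact but are left out of the inserted bases described next.

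What was inserted beside an intact Jk1 end in B1 was mostly a palindromic copy of that end. The palindrome starts with the bases gtggac, the reverse complement of the last bases of Jk1 on the read. In WT B the most frequent insertions were g, gg and ga, with 26.5%, 12.7% and 11.4% of 202429 insertions. In Ku70-/- B1 they were gtg, gt and gtggac, with 23.1%, 14.2% and 13.2% of 737 insertions. The 12-base copy gtggacgttcgg accounted for 37 further B1 insertions.

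Insertions that were palindromic over their whole length made up 42.6%, 42.5% and 42.9% of those beside intact Jk1 in WT B and 89.6%, 89.8% and 89.3% in Ku70-/- B1. Whole palindromes of at least 5 bases made up 0.712%, 0.755% and 0.747% in WT B and 33.2%, 36.1% and 39.7% in B1. The longest was 6 or 7 bases in the WT B libraries and 14, 15 and 18 bases in the B1 libraries. In WT A the whole-palindrome share was 33.6% ± 0.776. The 3 A1 libraries held 4, 2 and 11 such insertions, of which 0, 2 and 10 were whole palindromes. This class was singled out after its values were seen, so no test is given. The most frequent B1 junction with at least 5 inserted bases beside an intact Jk1 (4 junctions, to Igkv1-135) shows it, with Jk1 in capitals and the inserted gtggac first in the lower case after it.

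Ku70-/- B1, to Igkv1-135: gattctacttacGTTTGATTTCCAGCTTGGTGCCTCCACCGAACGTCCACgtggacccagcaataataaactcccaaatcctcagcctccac

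The most frequent B1 structure with any insertion (7 junctions) was of this kind too. In it the intact Jk1 end was followed by the bases gt and by the intact signal end of Igkv5-39, whose heptamer here reads cacaatg. In A1 the most frequent structure with an insertion (5 junctions) had lost 6 bp of Jk1 and joined Igkv5-39 with the inserted base a. Both are shown with Jk1 in capitals.

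Ku70-/- B1, Jk1 to the Igkv5-39 signal end: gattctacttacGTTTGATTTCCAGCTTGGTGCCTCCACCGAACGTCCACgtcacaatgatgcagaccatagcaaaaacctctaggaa
Ku70-/- A1, to Igkv5-39: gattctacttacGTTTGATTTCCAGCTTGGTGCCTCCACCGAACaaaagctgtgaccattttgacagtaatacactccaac

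Short sequence overlaps were more frequent in Ku70-/- joins. An overlap is a run of bases at the junction that both bait and prey alignments claim. Unrelated ends also share short runs by chance, and that level was not computed, so overlaps alone do not show use of microhomology. At least 1 bp of overlap was present in 3.399%, 3.74% and 3.88% of WT A junctions and 9.28%, 9.35% and 9.38% of WT B junctions. In Ku70-/- A1 the shares were 44.0%, 43.9% and 45.4%, and in B1 45.2%, 45.3% and 45.4%. The mean difference was 38.4 percentage points (exact permutation p = 0.005, adjusted 0.00563).

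Most of these overlaps were short. Of the Ku70-/- B1 junctions without an insertion, 53.8% ± 0.111 had no overlap, 28.3% ± 0.188 had 1 bp, 10.7% ± 0.193 had 2 bp and 3.49% ± 0.0599 had 3 bp. In A1 these shares were 55.0% ± 0.981, 26.8% ± 1.02, 10.8% ± 0.954 and 4.12% ± 0.739. In WT B they were 83.7% ± 0.0509, 13.3% ± 0.0342, 2.41% ± 0.0300 and 0.386% ± 0.0211. The mean length of an overlap was 1.35 ± 0.00307 bp in WT A, 1.73 ± 0.0345 bp in Ku70-/- A1, 1.27 ± 0.000643 bp in WT B and 1.71 ± 0.0129 bp in Ku70-/- B1 (difference 0.409 bp, exact permutation p = 0.005, adjusted 0.00563). That difference in length was lost over distinct junctions (-0.0100 bp, exact permutation p = 0.88), where WT B overlaps averaged 1.83 ± 0.00243 bp and B1 overlaps 1.69 ± 0.0110 bp.

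Overlaps of at least 4 bp were present in 0.111% ± 0.0207 of WT A, 3.31% ± 0.196 of Ku70-/- A1, 0.146% ± 0.00549 of WT B and 3.61% ± 0.0672 of Ku70-/- B1 junctions (difference 3.33 percentage points, exact permutation p = 0.005, adjusted 0.00563). Direct joins, with neither overlap nor insertion, rose from 34.4% ± 0.295 to 54.2% ± 1.14 in lineage A and from 47.8% ± 0.0908 to 52.8% ± 0.154 in lineage B (difference 12.4 percentage points, exact permutation p = 0.005, adjusted 0.00563). Over distinct junctions direct joins rose by more, from 20.8% ± 2.10 to 52.6% ± 0.568 and from 18.1% ± 0.0425 to 56.0% ± 0.140 (difference 34.8 percentage points, exact permutation p = 0.005), about as much as overlaps of at least 1 bp (37.1). The share of junctions with at least 2 bp of overlap was highest in the rare B1 joins with Jk1 intact, at 29.8% ± 2.26, and lay close together for longer losses, at 17.9% ± 0.477 for losses of 1 to 9 bp, 17.2% ± 0.144 for 10 to 19 bp and 17.3% ± 0.161 for 20 to 48 bp. In A1 it was 50%, 82.8% and 42.9% of the 10, 29 and 28 joins with Jk1 intact and 16.9% to 18.3% on average for the other classes. Joins with Jk1 intact were 0.906% ± 0.0403 of B1 and 0.425% ± 0.0936 of A1 junctions. They include reads whose bait alignment ran past the coding end, 0.145% ± 0.0115 of B1 and 0.0839% ± 0.0544 of A1 junctions. How far such reads make up the overlaps of this class was not tested.

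The same overlaps led in both Ku70-/- clones. Among overlaps of at least 4 bp the most frequent was ctccac, with 43 of 501 in A1 and 568 of 6177 in B1, followed in both by gaac, with 32 and 418. Both runs lie within the last bases of Jk1 shown above. The most frequent B1 junction with at least 4 bp of overlap (82 junctions) joined Igkv1-110 through gaac. The most frequent A1 junction of that class (21 junctions) joined the signal end of Igkv6-32 through gtgcctc, after a loss of 14 bp of Jk1, and was also the most frequent opposite-orientation junction of B1 (63 junctions). Capitals mark Jk1, and the overlap is the end of the capitals.

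Ku70-/- B1, to Igkv1-110: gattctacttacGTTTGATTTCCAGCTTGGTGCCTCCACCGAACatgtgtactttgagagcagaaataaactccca
Ku70-/- A1 and B1, Jk1 to the Igkv6-32 signal end: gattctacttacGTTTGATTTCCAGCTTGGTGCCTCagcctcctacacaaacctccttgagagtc

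**Figure D3:**
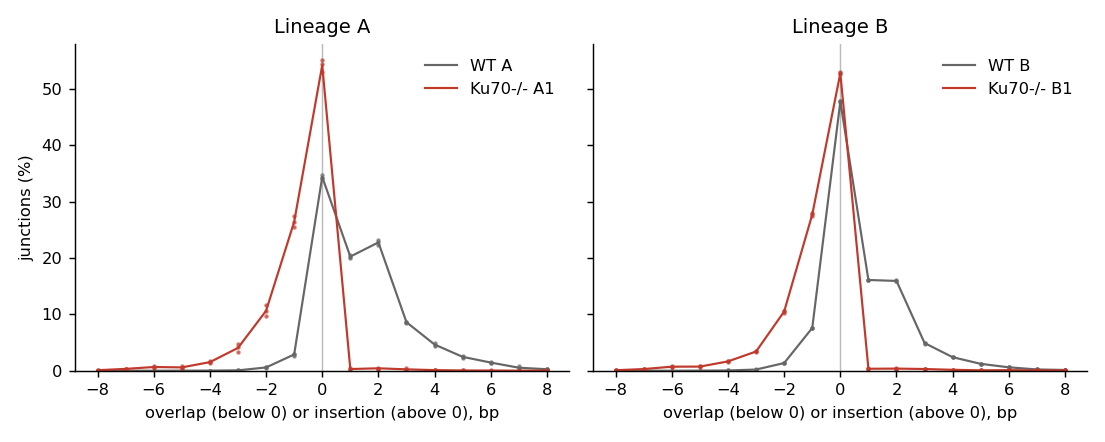
Percent of junctions by length of overlap (below 0) or insertion (above 0) in bp, from -8 to 8, for lineage A (left) and lineage B (right); points are libraries and lines are means of 3. WT junctions spread to the insertion side, while Ku70-/- junctions lie at 0 and on the overlap side.

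Join orientation changed as well. For every Vk segment 1 prey orientation corresponds to a coding join, and the opposite one places Jk1 next to the recombination signal of the segment. Opposite-orientation joins made up 0.210%, 0.300% and 0.366% of WT A junctions near a Vk end and 0.299%, 0.285% and 0.285% of WT B junctions. In Ku70-/- A1 they made up 36.7%, 25.8% and 29.9%, and in Ku70-/- B1 29.7%, 30.2% and 30.8%. The genotypes did not overlap, and the A1 replicates spread more widely than those of B1. The mean difference was 30.2 percentage points (exact permutation p = 0.005, adjusted 0.00563). Over distinct junctions the shares were 0.700% ± 0.185 in WT A, 2.22% ± 0.0234 in WT B, 33.8% ± 4.50 in A1 and 37.0% ± 0.565 in B1.

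Nearly all of these joins had the geometry of a hybrid join. Their prey lay on the signal side of the RefSeq border in 99.0% ± 0.119 of the cases in A1 and 98.1% ± 0.0503 in B1, against 77.1% ± 11.1 in WT A and 76.3% ± 0.695 in WT B. The WT values rest on 99 to 194 joins per library in A and 836 to 873 in B. Where the prey began at the first base beyond the border, 85.4% ± 2.35 of the B1 reads and 85.2% ± 2.93 of the WT B reads started with the canonical heptamer cacagtg.

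Signal ends were trimmed in Ku70-/- joins too. No base of the signal end was missing in 42.0% ± 7.65 of the WT A and 32.6% ± 0.867 of the WT B joins on the signal side, but in 3.30% ± 0.166 of those of A1 and 4.09% ± 0.312 of those of B1. The median loss was 17, 18 and 19 bp in A1 and 13 bp in each B1 library, against 0 to 2 bp in the WT libraries. At least 10 bp was missing in 72.5% ± 2.67 in A1 and 65.0% ± 0.117 in B1. A loss of 6 bp made up 7.63% to 8.05% of these joins in the B1 libraries and 6.82% to 8.86% in the A1 libraries, ranges that overlap with the 6.003% to 8.995% of WT B and the 2.97% to 7.59% of WT A. A loss of 10 bp made up 8.10% to 8.65% in B1, 4.73% to 6.68% in A1, 0.5997% to 2.15% in WT B and 0% to 3.96% in WT A. A loss of 26 bp made up 4.30% to 4.50% in B1 and 4.80% to 6.71% in A1, but at most 0.154% in WT libraries.

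Jk1 was trimmed in hybrid-type joins at least as far as in coding joins of the same libraries. At least 10 bp of Jk1 was missing from 84.0% ± 0.795 of the opposite-orientation joins and 71.0% ± 0.270 of the coding joins in A1, and from 78.0% ± 0.504 and 67.3% ± 0.543 in B1. The opposite-orientation value was the higher in 6 of 6 Ku70-/- libraries. Insertions were present in 1.02% ± 0.537 of the opposite-orientation joins of A1 and 1.44% ± 0.125 of those of B1. Overlaps of at least 2 bp were present in 19.9% ± 1.201 of the opposite-orientation joins against 17.3% ± 0.956 of the coding joins in A1, and in 19.05% ± 0.199 against 16.9% ± 0.233 in B1. The few opposite-orientation joins of WT cells held more of both: overlaps of at least 2 bp in 25.8% ± 5.62 (A) and 40.9% ± 2.07 (B), and insertions in 58.5% ± 5.15 and 39.4% ± 0.660. Within this class overlaps were thus lower in every Ku70-/- library than in every WT library of lineage B, while in lineage A 1 WT library, at 21.1%, lay within the Ku70-/- range of 19.05% to 21.3%. Over all joins, the heptamer cacagtg was 190 of 1296 WT B and 24 of 169 WT A overlaps of at least 4 bp. It does not lie within Jk1 as printed above. Bait alignments ran past the Jk1 coding end in 3.00% of WT A and 1.84% of WT B junctions. How far such overlaps make up the WT share in this class was not tested.

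**Figure D4:**
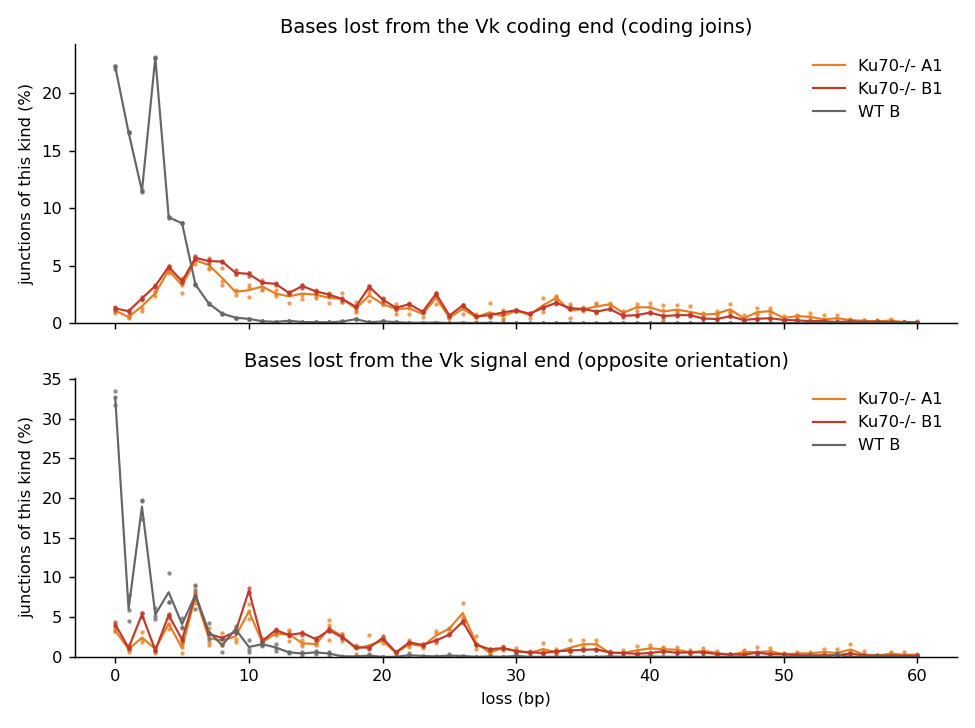
Percent of joins at each loss from 0 to 60 bp, counted from the RefSeq border, for Vk coding ends in coding joins (upper) and Vk signal ends in opposite-orientation joins (lower); points are libraries and lines are means of 3, for both Ku70-/- clones and WT B. WT B lies mostly under 6 bp on both kinds of end, and both Ku70-/- clones extend past 20 bp on both.

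Opposite-orientation joins were more frequent at segments whose coding joins invert the locus. In Ku70-/- A1 they made up 43.3%, 34.3% and 38.5% of the junctions to inversional segments and 20.7%, 9.48% and 11.6% of those to deletional segments. In B1 the shares were 35.4%, 35.9% and 37.0%, and 20.9%, 21.3% and 21.1%. The inversional share was the higher in 6 of 6 libraries. In WT B they were 0.330% ± 0.0130 and 0.231% ± 0.00839. This split was made after the values were seen and was not tested. An opposite-orientation join at an inversional segment deletes the DNA in between, so raw prey orientation shifted as well: prey in minus orientation rose from 35.8% ± 5.49 in WT A to 53.9% ± 0.514 in Ku70-/- A1 and from 40.6% ± 0.183 in WT B to 52.9% ± 0.387 in Ku70-/- B1 (difference 15.2 percentage points, or 25.9 with equal weight per segment; exact permutation p = 0.005, adjusted 0.00563). Among coding joins alone, deletional segments made up 35.6% ± 5.47 in WT A, 39.5% ± 2.99 in A1, 40.5% ± 0.180 in WT B and 44.3% ± 0.202 in B1.

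The changes were shared by the Vk segments that could be compared. Of 16 segments with at least 50 junctions in each of the 12 libraries, 16 had every Ku70-/- library above every WT library of its lineage for Jk1 loss of at least 10 bp, which is 100% of those compared. The same held for 16 of 16 (100%) for Vk loss of at least 10 bp, for overlap of at least 2 bp and for opposite orientation, and 16 of 16 (100%) were lower for insertion. Prey in minus orientation was higher at 13 segments (81.2%) and lower at 3 (18.8%), which are the deletional segments Igkv1-135, Igkv11-125 and Igkv3-10.

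Segments still differed in degree. In B1 the share of junctions with at least 10 bp lost from Jk1 ran from 58.4% at Igkv3-10 to 75.8% at Igkv1-135, with a median of 70.1%. The share with at least 10 bp lost from Vk ran from 34.2% at Igkv4-51 to 61.6% at Igkv8-30, and the opposite-orientation share from 13.6% at Igkv3-10 to 45.3% at Igkv4-68. In A1, Igkv3-10 also had the lowest share of Jk1 loss, 52.7%, and Igkv4-68 the highest, 90.1%. Among the most used segments, mean Jk1 loss in B1 was 16.8 ± 0.322 bp at Igkv1-117, 19.3 ± 0.300 bp at Igkv1-135, 16.4 ± 0.224 bp at Igkv12-44, 17.0 ± 0.272 bp at Igkv6-32 and 16.8 ± 0.244 bp at Igkv8-24, against 1.203 to 1.41 bp at these segments in WT B. In A1 it was 19.1 ± 3.01 bp at Igkv1-117, 25.7 ± 4.54 bp at Igkv1-135, 22.9 ± 2.59 bp at Igkv12-44, 22.8 ± 3.74 bp at Igkv6-32 and 34.7 ± 15.04 bp at Igkv8-24, where 1 library held 7 junctions. Igkv1-135 was thus above the other 4 in B1 by more than their SDs. Igkv3-7, the other of the 6 most used, had 0, 0 and 2 junctions in the B1 libraries and gave no value there.

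**Figure D5:**
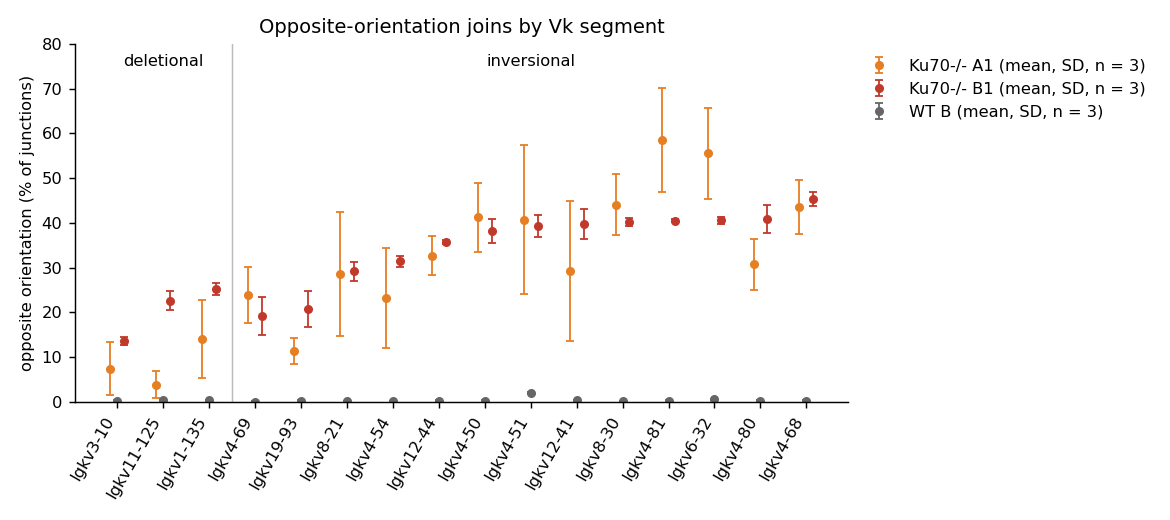
Opposite-orientation joins (% of junctions, mean and SD of 3 libraries) at the 16 segments compared, deletional segments left of the line and inversional segments right of it, for both Ku70-/- clones and WT B. WT B stays under 2% at every segment; in B1 the shares run from 13.6% to 45.3%, and most SDs are wider in A1.

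The gain in overlaps of at least 2 bp was highest at Igkv12-41 (20.7 percentage points over both lineages), Igkv4-54 (18.98) and Igkv1-135 (18.6), and lowest at Igkv8-30 (11.4), Igkv11-125 (12.5) and Igkv3-10 (12.9). The lineages did not give the same order. Igkv12-41 gained 19.6 percentage points in lineage A and 21.8 in lineage B, where it was the highest, and Igkv8-30 gained 8.80, the lowest in lineage A, and 13.9. Igkv4-54 gained 23.05 in A but 14.9 in B, and the lowest gains in B were those of Igkv4-69 (13.5) and Igkv4-68 (13.7). The first 30 bases of the segments with the highest and lowest mean gain are shown from the RefSeq border inward as the reads carry them (plus strand, mm10, chr6:69858420-69858449 and chr6:70117061-70117090), with the longest run that also occurs in Jk1 in capitals.

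Igkv12-41: ggaggagtaCTCCAaaaatgttgacagtaa
Igkv8-30: ggaggatAGCTataatattgctgacagtaa

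Igkv12-41 shares a run of 5 bases with Jk1, which here does not extend to the leading overlap ctccac, and Igkv8-30 a run of 4. These bases lie on the coding side, whereas the gain counts joins in both orientations. Opposite-orientation joins made up 29.2% (A1) and 39.8% (B1) at Igkv12-41, and 44.1% and 40.2% at Igkv8-30. Run length alone did not order the 16 segments: Igkv4-81 shares 6 bases and gained 15.0 percentage points.

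Ku70-/- joins also differed from those of Lig4-/- cells, which lack ligase IV and carry the same transgene and treatment. Lig4-/- libraries were far smaller, with 35, 37 and 74 junctions in clone A1 and 50, 55 and 60 in clone B1. Of these, 10, 15 and 38 were distinct in A1 and 44, 49 and 44 in B1. In A1 replicate 1 the most frequent structure made up 13 of the 35 junctions. The Lig4-/- A1 values thus rest on few distinct joins, some of them repeated. Mean overlap length was 2.48 to 3.59 bp in Lig4-/- A1 and 2.57 to 2.86 bp in Lig4-/- B1, above the 1.69 to 1.76 bp of the 6 Ku70-/- libraries (difference -1.06 bp for Ku70-/-, exact permutation p = 0.005, adjusted 0.01 over 4 measures). Insertions were present in 9.72% ± 5.20 of Lig4-/- A1 and 25.1% ± 6.20 of Lig4-/- B1 junctions, more than in Ku70-/- (difference -15.8 percentage points, exact permutation p = 0.005, adjusted 0.01).

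Mean losses were larger in Ku70-/- than in Lig4-/- cells in lineage A, while in lineage B the libraries of both genotypes overlapped. There mean Jk1 loss was 14.9, 18.8 and 14.3 bp in the Lig4-/- libraries and 17.6 to 17.7 bp in the Ku70-/- libraries. Mean Vk loss there was 13.1, 17.6 and 16.0 bp against 15.9 to 16.5 bp. Mean Jk1 loss was 10.1 ± 2.33 bp in Lig4-/- A1 against 26.1 ± 0.969 bp in Ku70-/- A1, and 16.0 ± 2.45 bp in Lig4-/- B1 against 17.6 ± 0.0524 bp in Ku70-/- B1 (difference 8.77 bp, exact permutation p = 0.02, adjusted 0.0267). The Jk1 difference was 4.24 bp with losses over 48 bp left out and 5.603 bp with the second Lig4-/- A1 set (exact permutation p = 0.02 each). Mean Vk loss differed by 15.1 bp in lineage A and 0.629 bp in lineage B (mean 7.89 bp, exact permutation p = 0.04, adjusted 0.04), and the mean difference was 7.28 bp with p = 0.08 without Lig4-/- B1 replicate 1. With the replicate number as a block neither loss passed the exact test (p = 0.0625 for Jk1 and 0.0938 for Vk). Joins with an intact Jk1 end made up 0% (0 of 35, which allows up to 8.57%) to 21.6% of Lig4-/- A1 and 14.0% to 18.3% of Lig4-/- B1 junctions, against 0.325% to 0.511% in Ku70-/- A1 and 0.865% to 0.946% in Ku70-/- B1. The 1000 most frequent WT B structures, which held 56.5% ± 0.174 of WT B junctions, held 74, 63 and 41 junctions of the Ku70-/- B1 libraries, or 0.107% ± 0.0400, and 2, 3 and 1 of the far smaller Lig4-/- B1 libraries of the same run, or 3.71% ± 1.91.

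None of the 18 Ku70-/- effects differed between lineages after adjustment (exact permutation of genotype labels within lineages; lowest adjusted p = 0.45, lowest unadjusted p = 0.025). That test relabels genotypes, so a difference between lineages that is small beside the effect itself cannot reach a low p. The largest gaps were those in the insertion share, -60.6 percentage points in lineage A and -41.0 in lineage B, and in direct joins, 19.8 and 5.02 percentage points. In both shares the WT clones differed by more than the Ku70-/- clones. These gaps between the WT clones rested on repeated junctions. Over distinct junctions insertions were present in 75.2% ± 2.01 of WT A and 74.7% ± 0.0977 of WT B, and direct joins in 20.8% ± 2.10 and 18.1% ± 0.0425.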

How the data were processed

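The labels name LAM-HTGTS for these libraries, with the enzyme blocking step omitted, on a MiSeq (lineage A) or NextSeq (lineage B). The authors deposited lists with 1 row per junction read; their columns hold positions, orientations and read coordinates, which are neither counts per feature nor normalized values. Bowtie2 and mm10 are named by the submitters' processing notes; versions are not given in the sources used here. Each row was counted once. Jk1 loss was the distance from the bait end to the Igkj1 start. Vk loss was measured on prey within 200 bp of a coding end, for segments with at least 20 WT junctions; 40 of 162 RefSeq Vk segments had fewer. Overlap bases were counted as kept by both sides. Library values were compared by two-sided exact permutation within lineages (400 relabellings), with Benjamini-Hochberg adjustment over 18 measures (4 for Lig4-/-). Steps were tested on simulated data (Python 3.11.15, NumPy 2.4.6, pandas 2.3.3). Shares and floors (3 junctions) cover counting error only, since identical reads may be PCR copies. No pair of replicates shared a read name, and replicates were kept separate. Segments were named by junction number and by overlap gain, and printed junctions by frequency; members, rules and lists were chosen with earlier results of these data known. Alternatives included distinct junctions, other windows and Vk ends, runs, and leaving out libraries.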

Additional observations from a re-analysis of the deposited data

How the results depend on the processing

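Of the 18 measures, 14 kept their direction and their side of 0.05 under each alternative run. Those that did not are as follows. Jk1 minus Vk loss was 0.666 bp over distinct junctions, 0.284 bp with overlaps counted as lost from Vk, 0.0427 bp with RefSeq borders, -0.907 bp within 48 bp of Jk1, 1.17 bp within shared sequencing runs (exact permutation p = 0.0667), and 0.702 to 1.18 bp with single libraries left out. Insertion length was 0.340 bp and overlap length -0.0100 bp over distinct junctions. The share far from a Vk end was -0.112 over distinct junctions, -0.101 with Ku70-/- modes as ends, -0.292 with RefSeq borders and 7.08 with a 50-bp window, which counts Vk losses over 50 bp. Within shared runs no other call changed (exact permutation p = 0.0167 for those past 0.05). The equal weight per segment gave no value for the share far from a Vk end. With the replicate number as a block (replicate block, exact sign-flip test over 6 pairs, smallest p 0.0313), p was 0.0625 for Jk1 minus Vk loss (0.947 bp), 0.0625 for Jk1 loss against Lig4-/- (8.77 bp) and 0.0938 for Vk loss against Lig4-/- (7.89 bp), and no other call changed. Same-numbered libraries shared only a number: the correlations of their deviations ran from -0.260 to 0.289. Vk loss against Lig4-/- was 7.28 to 8.39 bp with libraries left out. Lineage A minus lineage B effects turned within 48 bp of Jk1 for Jk1 loss (-0.617 bp), Jk1 loss of at least 10 bp (-1.46), both ends lost (-0.274), Jk1 minus Vk loss (-2.14 bp) and opposite orientation (-1.25). With libraries left out they ran from -2.45 to 3.05 for opposite orientation and from -0.0629 to -0.0394 for the share far from a Vk end. With at least 20 junctions per library, 46 segments could be compared, and all 46 kept the pattern for Jk1 loss, Vk loss and insertion and 43 for overlap; over distinct junctions only 1 segment could be compared, and it kept it. Except where a construction is named, the cause was not tested. Alternatives with RefSeq borders, within 48 bp of Jk1 and without Igkv3-2 to Igkv3-7 were chosen after seeing the data. Depth limits the Lig4-/- libraries most: 3 junctions are 4.05% to 8.57% of a library.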

Other observations

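Ku70-/- B1 lacked junctions to 5 neighbouring Vk segments near Jk1. Igkv3-7, Igkv3-5, Igkv3-4, Igkv3-3 and Igkv3-2, whose coding ends lie between positions 70608033 and 70699064 of chromosome 6 (mm10), held 20276, 20524 and 21355 junctions in the WT B libraries and 1, 0 and 3 in the Ku70-/- B1 libraries. In percent of all junctions these were 6.96%, 7.01% and 6.98% against 0.00199%, 0% and 0.00493%, where a count of 0 allows up to 0.005003%. The segments on either side were joined: Igkv3-9 had 26, 32 and 44 junctions and Igkv3-1, the closest to Jk1, 234, 288 and 258. In Ku70-/- A1 the 5 segments held 3.67%, 4.83% and 5.20% of junctions, against 4.08%, 5.19% and 5.05% in WT A. Whether the DNA of these segments is present in clone B1 was not tested. Leaving them out moved no measure across the threshold; opposite orientation differed by 30.6 percentage points and prey in minus orientation by 18.2.

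Inserted bases differed in composition between the WT clones and Ku70-/- B1 as well. Ku70-/- A1, with 49, 49 and 102 insertions, is left out here, so this rests on 1 Ku70-/- clone. G or C made up 61.8% ± 0.446 of inserted bases in WT A and 60.7% ± 0.153 in WT B insertions of up to 10 bases, and 53.9% ± 0.445 in Ku70-/- B1. In WT joins that kept Jk1 intact the first inserted base was g, the first base of the palindrome, in 80.7% ± 0.774 (A) and 82.3% ± 0.0548 (B), against 19.1% ± 0.0194 and 19.5% ± 0.258 in WT joins that had lost 2 to 5 bp of Jk1; in Ku70-/- B1 joins with an intact Jk1 it was 98.5% ± 0.321. Of the B1 joins with an intact Jk1 and an insertion, 42.4% ± 4.59 were in the opposite orientation, against 0.210% ± 0.0259 in WT B.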
